A study of Rattus norvegicus with 6 samples.

Results

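Uptake of dead cells was followed through 10 genes that encode engulfment receptors, the proteins that bridge them to dying cells, and adaptors inside the engulfing cell: Mertk, Axl, Tyro3, Gas6, Pros1, Mfge8, Gulp1, Elmo1, Scarb1 and Cd36. They were chosen by name, with earlier results of these data known. All 10 were among the 14506 genes with a probe set of a single gene symbol. Their RNA was compared between testis cells of 9-day-old and 21-day-old rats, labelled as Sertoli cells, with 3 arrays of each age. Cells of both ages were kept in DMEM/F12 medium with 10% fetal bovine serum, which was changed after a further 24 hours to purify them. The labels place the younger rats in the phase when Sertoli cells divide and the older ones after it. They name no strain and leave unsaid whether the replicates of an age are different animals or different dishes. The p-values therefore rest on a spread between arrays that may be technical.

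Sertoli cells are the resident phagocytes of the seminiferous tubule, where many germ cells die as spermatogenesis is set up and later shed residual cytoplasm. A dying cell exposes the lipid phosphatidylserine on its surface. Bridging proteins bind that lipid on one side and a receptor of the engulfing cell on the other: Gas6 and Pros1 serve the receptor kinases Tyro3, Axl and Mertk, known together as TAM receptors, and Mfge8 serves integrins. The scavenger receptors Scarb1 and Cd36 bind the lipid themselves. Inside the cell Gulp1 couples receptors to the uptake machinery, and Elmo1 acts with Dock proteins to switch on the GTPase Rac1, which drives actin around the target.

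Each value was a log2 signal after RMA, the authors' normalization of the arrays, and differences are given as 21 days minus 9 days on that scale. Array medians lay between 3.78 and 3.87. No array repeated another, and correlations across genes ran from 0.978 to 0.995. Both arrays numbered 3 lay apart from the rest, at 18.8 and 32.5 on a first principal component with 50.8% of the variance, against -21.2 to -8.91 for the other 4. Markers of smooth muscle and fibroblasts included very strong ones in these cultures: Acta2 and Col1a1 lay above 99.9% and 99.8% of genes. These were the brightest of their lists, and the dimmest, Lmod1 and Dpt, lay above 63.2% and 55.1%. Among Sertoli cell markers, Clu and Wt1 lay above 97.5% and 81.0% of genes, but Amh and Fshr above 32.0% and 20.5% only. Clu and Fshr were the brightest and the dimmest of that list. The mean of the 8 fibroblast markers lay between 8.66 and 9.37 over the arrays. Of these markers 3 were higher and 5 lower in mean at 21 days. Differences were 1.03 for Thy1, -0.73 for Pdgfra and -0.083 for Col1a1. Dpt had means of 4.37 and 5.87, but its older replicates were at 4.53, 7.92 and 5.17 and the ages overlapped. All 9 measured smooth muscle markers had the smaller mean in the older cultures, each with overlap, and their middle difference was -0.35. Sertoli cell markers leaned the other way. Of 17 measured, 14 had the larger mean in the older cultures, 5 without overlap, and 3 the smaller. Their middle difference was 0.22. Over all genes 46.5% had the larger mean in the older cultures, and 2.74% were higher without overlap. In cultures of mixed cells, fewer cells of a type and less RNA per cell cannot be told apart.

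None of the 10 genes differed between the ages by limma's test with Benjamini-Hochberg adjustment over all genes, which called 0 of 14506 genes (0%), and 0 with the replicate number as a block. At an unadjusted p under 0.05 limma gave 431 genes (2.97%) and none of the 10, and with the block 1122 genes (7.73%) and 1 of the 10, Elmo1. The engulfment genes were split in direction, with 4 higher and 6 lower in mean at 21 days, where 46.5% of all genes were higher. Their median difference was -0.011, beside -0.0093 over all genes. Elmo1 stood out in size. It was the only member of at least 2-fold, a size reached by 62 genes (0.427%), and the only one without overlap between the ages, which held for 830 genes (5.72%), 398 of them higher (2.74%). The number of arrays limits the precision: without the block the SE of a difference had a median of 0.112. SEs and intervals below come from that fit unless the block is named. With the block the SE fell from 0.24 to 0.077 for Pros1 and from 0.23 to 0.071 for Mfge8. For Gulp1 it fell from 0.20 to 0.077 and for Axl from 0.22 to 0.10. It also fell for Mertk, Tyro3, Gas6 and Elmo1, and rose for Scarb1 and Cd36.

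**Figure D1:**
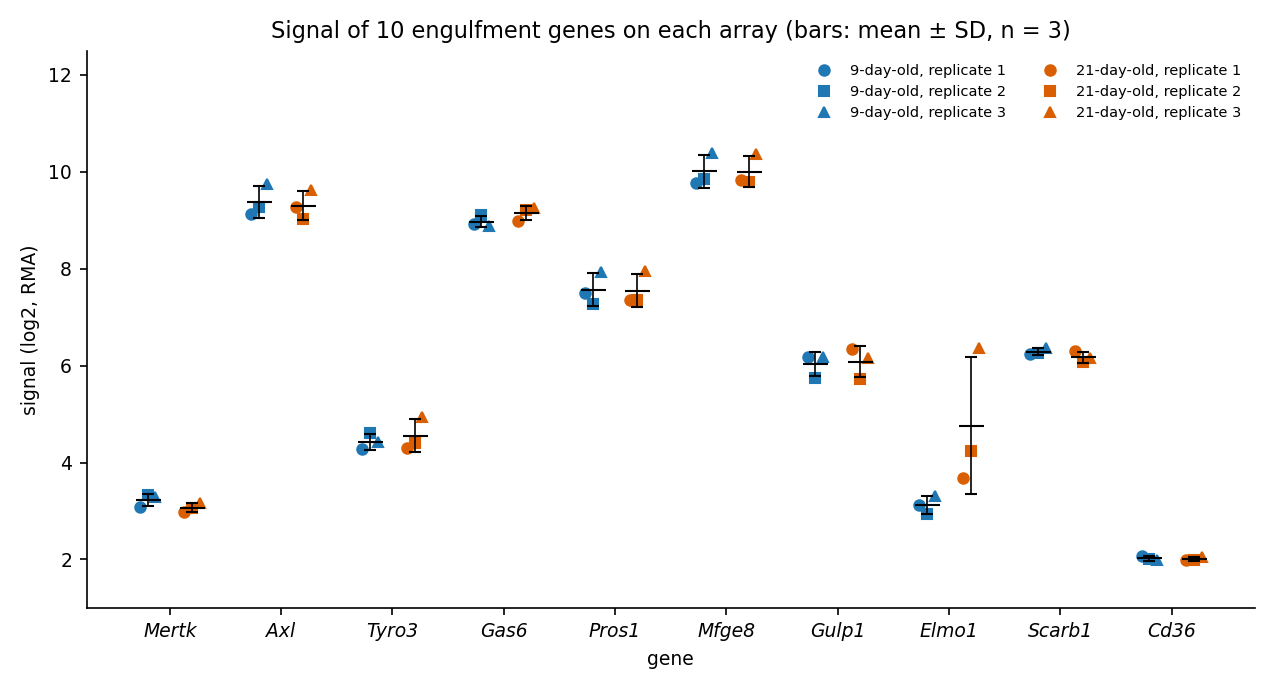
Log2 signal (RMA) of the 10 engulfment genes on each of the 6 arrays, with blue points for 9-day-old and orange points for 21-day-old cultures, a marker shape for each replicate number, and black bars for the mean ± SD (n = 3). Mfge8, Axl and Gas6 lie near the top, Mertk and Cd36 near the bottom, and Elmo1 at 21 days spreads from 3.69 to 6.36.

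The TAM receptors were read at very different signals. Axl, a receptor kinase that binds Gas6, was at 9.12, 9.28 and 9.75 at 9 days and at 9.27, 9.02 and 9.62 at 21 days (log2 signal, replicates 1, 2 and 3). The array numbered 3 was the highest of each age and the ages overlapped. The means were 9.39 ± 0.33 and 9.30 ± 0.30 (SD, n = 3 each), and the difference was -0.081, with a 95% interval from limma of -0.62 to 0.46 and an adjusted p of 1. The probe set of Axl was brighter than 96.8% of genes. Signals of different probe sets do not give amounts of transcript, so this place among genes is only a rough guide.

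Mertk, the receptor kinase best known for clearance of dead cells by the retina and by macrophages, had a low signal, above 30.3% of genes. It was at 3.09, 3.33 and 3.28 at 9 days and at 2.98, 3.06 and 3.17 at 21 days. The values overlapped, because replicate 1 at 9 days lay below replicate 3 at 21 days. The difference was -0.16 ± 0.09 (SE), with an interval of -0.39 to 0.066 and an adjusted p of 1 in limma. Arrays of the same number differed by -0.11, -0.27 and -0.11, so that Mertk was lower in 3 of 3 pairs, as were 19.0% of all genes. No detection calls were used here, and whether a signal this low lies above background is unknown. After the arrays were set to equal medians, or quantile normalized again, the ages no longer overlapped for Mertk, which then held for 8.04% and 8.58% of genes.

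Tyro3, the TAM receptor most abundant in brain, was at 4.27, 4.61 and 4.41 at 9 days and at 4.31, 4.41 and 4.94 at 21 days. Replicate 3 at 21 days was the highest of the 6 and the other values of that age lay within the younger range. The difference was 0.12 ± 0.19 (SE), with an interval of -0.34 to 0.59 and an adjusted p of 1 in limma. It was -0.073 without 21-day-old replicate 3. The signal of Mertk relative to Axl, taken on each array as a log2 ratio, changed by -0.081 between the ages, and by -0.26, -0.0059 and 0.024 in the arrays numbered 1, 2 and 3. With Mertk not known to exceed background, this does not show whether the balance of the receptors changed.

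Of the bridging proteins, Mfge8 and Gas6 were among the brightest genes of the arrays and Pros1 was intermediate. Mfge8, a secreted glycoprotein with an integrin-binding site and lipid-binding domains, exceeded 98.3% of genes. It was at 9.77, 9.86 and 10.39 at 9 days and at 9.84, 9.79 and 10.37 at 21 days. The ages matched closely array by array, and the array numbered 3 was the highest of each. The means of 10.01 ± 0.33 and 10.00 ± 0.32 (SD, n = 3 each) differed by -0.0074. The interval of -0.57 to 0.55 from limma (adjusted p of 1) was set by the spread within each age, whereas arrays of the same number differed by 0.067, -0.068 and -0.022.

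Pros1 encodes protein S, a plasma anticoagulant that also activates Tyro3 and Mertk. It was at 7.49, 7.27 and 7.93 at 9 days and at 7.36, 7.35 and 7.94 at 21 days. It showed the same arrangement as Mfge8, with overlapping ages and the highest value in replicate 3 of each. The difference was -0.016 ± 0.24 (SE), with an interval of -0.60 to 0.57 and an adjusted p of 1 in limma.

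Gas6, the ligand of all 3 TAM receptors, exceeded 95.9% of genes. It was at 8.93, 9.10 and 8.89 at 9 days and at 8.99, 9.21 and 9.26 at 21 days. Replicates 2 and 3 at 21 days lay above all younger values and replicate 1 did not. The means were 8.97 ± 0.11 and 9.16 ± 0.14 (SD, n = 3 each), a difference of 0.18 with an interval of -0.072 to 0.44 and an adjusted p of 1 in limma. Gas6 was higher in 3 of 3 pairs of the same number, by 0.060, 0.11 and 0.38, as were 10.7% of all genes. An exact two-sided permutation test gave p = 0.20, where 0.10 is the smallest that 3 against 3 arrays allow. The log2 ratio of Gas6 to Pros1 changed by 0.20, and by 0.19, 0.031 and 0.37 in the arrays numbered 1, 2 and 3. The change was 0.11 without both arrays numbered 3 and -0.030 without 9-day-old replicate 3 alone.

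**Figure D2:**
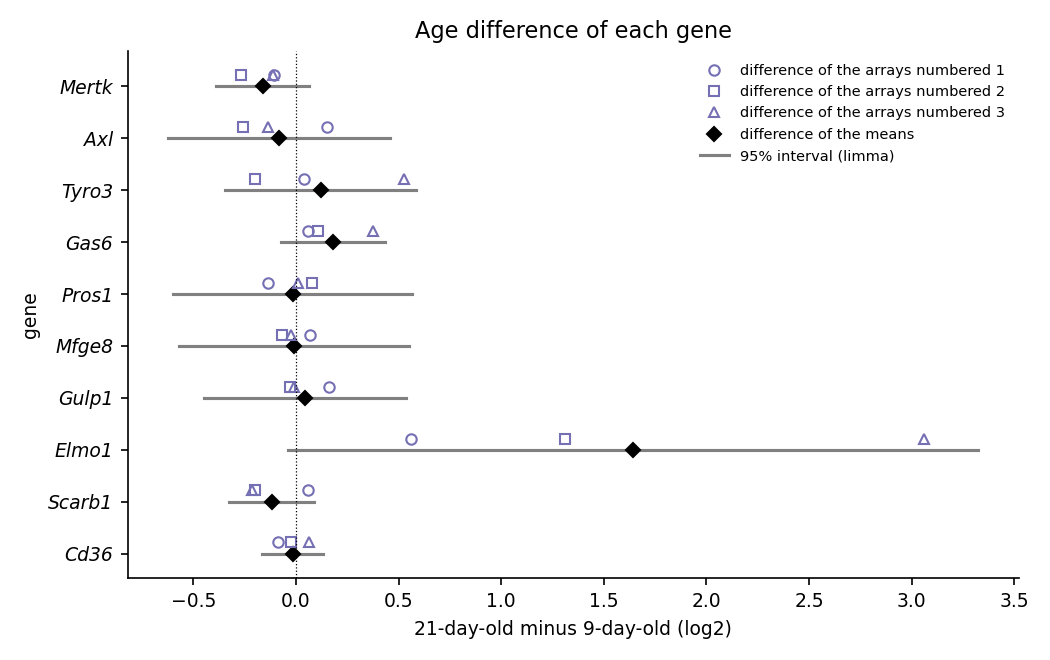
Difference between 21-day-old and 9-day-old cultures (log2) for each of the 10 genes, with black diamonds for the difference of the means, grey lines for the 95% interval from limma without the replicate block, and open symbols for the difference of the 2 arrays of the same number. All intervals include 0, and Elmo1 lies to the right with pair differences of 0.56, 1.31 and 3.06.

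Axl, Pros1 and Mfge8 differed more between replicate numbers than between ages. In the array numbered 3 they lay above the mean of the other 2 arrays of their age by 0.55, 0.55 and 0.57 at 9 days and by 0.47, 0.59 and 0.55 at 21 days. A gap of over 0.4 at both ages, a size chosen after the values were seen, was found for these 3 of the 10 genes and for 4.33% of all genes. The 9 measured smooth muscle markers had higher means in the same arrays, by 1.37 at 9 days and 1.55 at 21 days. Myh11, the smooth muscle myosin, was at 9.16 and 8.73 in the arrays numbered 3 and between 6.06 and 7.46 in the others. The part of these cells in the signals of Axl, Pros1 and Mfge8 was not tested.

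**Figure D3:**
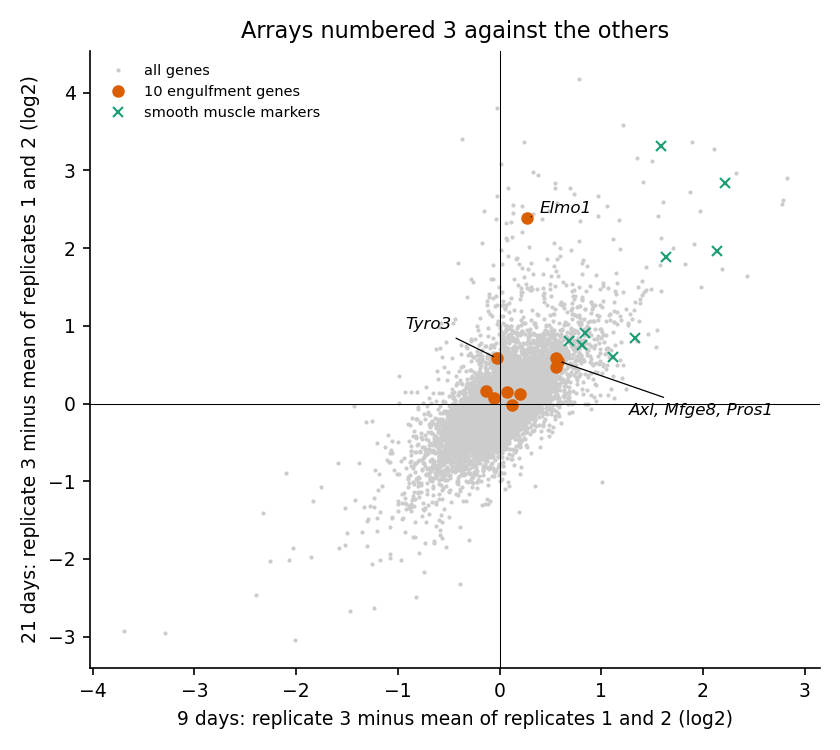
Log2 signal of the array numbered 3 minus the mean of replicates 1 and 2, at 9 days (horizontal) and at 21 days (vertical), with grey dots for all 14506 genes, orange points for the 10 engulfment genes and green crosses for the 9 smooth muscle markers. Axl, Mfge8 and Pros1 lie together above 0 on both axes, while Elmo1 is high at 21 days only, at 2.39 against 0.27.

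The stretches before the start sites of these 3 genes are shown because their signals moved together across arrays. They are the 250 bases before the RefSeq start of each gene in build GRCr8, read 5′ to 3′ in the direction of the gene, with the GC box (GGGCGG or its reverse complement CCGCCC) in capitals. The window of Axl is chr1:90424010-90424259 (- strand), that of Mfge8 chr1:142489432-142489681 (- strand) and that of Pros1 chr11:13677049-13677298 (+ strand).
Axl: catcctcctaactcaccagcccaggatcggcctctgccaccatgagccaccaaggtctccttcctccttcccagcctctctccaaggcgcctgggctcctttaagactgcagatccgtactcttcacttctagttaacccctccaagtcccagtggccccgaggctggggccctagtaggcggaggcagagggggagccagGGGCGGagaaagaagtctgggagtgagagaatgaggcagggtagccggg
Mfge8: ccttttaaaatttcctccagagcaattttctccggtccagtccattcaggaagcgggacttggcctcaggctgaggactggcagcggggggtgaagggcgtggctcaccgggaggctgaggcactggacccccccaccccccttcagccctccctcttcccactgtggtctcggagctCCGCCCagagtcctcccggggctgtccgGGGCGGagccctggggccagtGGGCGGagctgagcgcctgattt
Pros1: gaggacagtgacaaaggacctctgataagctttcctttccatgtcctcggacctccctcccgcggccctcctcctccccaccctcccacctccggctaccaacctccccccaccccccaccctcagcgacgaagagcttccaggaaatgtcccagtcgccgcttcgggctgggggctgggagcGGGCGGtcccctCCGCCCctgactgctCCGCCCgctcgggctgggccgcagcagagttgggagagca
RefSeq held such a window for 9 of the 10 genes, and Scarb1 is named only. GC boxes, searched on both strands with overlaps between matches counted, numbered 1 in Axl, 3 in Mfge8 and 3 in Pros1. They were in 7 of the 9 windows and in 30.5% of the 33469 windows that RefSeq held, which were not limited to genes on the arrays. The 7 windows with a GC box were 61.6% to 82.0% G or C. Those of Gulp1 and Cd36, without one, were 60.4% and 45.6%. The part of base composition in these counts was not tested. The CArG box, the motif of serum response factor in muscle genes, was in none of the 9 and in 501 of all windows. The letters GGAATG of TEAD factors were in none of the 9 either, and in 12.1% of all windows. A match or its lack describes these letters only.

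Elmo1 had the largest difference between the ages among the engulfment genes. It was at 3.13, 2.93 and 3.30 at 9 days and at 3.69, 4.24 and 6.36 at 21 days. All older values lay above all younger ones, and replicate 3 at 21 days was far above the rest. The means were 3.12 ± 0.18 and 4.76 ± 1.41 (SD, n = 3 each), a 3.12-fold difference in signal and the 15th largest in size of all genes. The mean at 9 days was below the 3.23 of Mertk at that age, and whether it exceeds background is likewise unknown. The fold is therefore one of signal, not of RNA amount. Averaged over all arrays, Elmo1 lay above 42.1% of genes. The log2 difference was 1.64 ± 0.68 (SE), with an interval of -0.036 to 3.32, an unadjusted p of 0.0537 and an adjusted p of 1 in limma. With the replicate number as a block the unadjusted p was 0.0196 and the adjusted p 0.544, and over the 13 alternatives that held this gene the adjusted p lay between 0.544 and 1. The exact permutation p was 0.10, the smallest possible. Without 21-day-old replicate 3 the difference was 0.85, and without both arrays numbered 3 it was 0.94.

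Sertoli cell markers were also highest in the array where Elmo1 was highest. The mean of the 17 measured markers was 4.58, 4.74 and 4.71 at 9 days and 4.81, 5.20 and 5.88 at 21 days. In 21-day-old replicate 3 they lay 0.87 above the other arrays of that age on average, and the germ cell markers 0.35 above. The 11 germ cell markers ranged from low to high signals. Uchl1, which other cell types also make, lay between 7.68 and 8.43 and was highest in 21-day-old replicate 3. Ddx4 lay between 2.41 and 2.53 on all arrays, and Dazl was at 3.06 in 21-day-old replicate 3 and between 2.04 and 2.46 elsewhere. Every measured germ cell marker except Zbtb16 and Gfra1, so also Ddx4, was highest in 21-day-old replicate 3. The part of either cell type in the difference of Elmo1 was not tested. Elmo1 is also abundant in white blood cells, and the 16 macrophage markers had means between 2.87 and 2.96 on all arrays. Among them Ptprc, the common leukocyte antigen, lay between 2.49 and 2.72 and was 2.51 in 21-day-old replicate 3. Csf1r and Cd68, the other defining macrophage markers, lay between 3.48 and 3.81 and between 3.47 and 4.09.

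Of all other genes tested, Kcne1, Gatm and Enpp5 had the patterns most like that of Elmo1. After each gene was set to its own mean, they departed from Elmo1 by 0.13, 0.17 and 0.19 log2 units on average over the 6 arrays. Kcne1, a potassium channel subunit, was at 4.43, 5.17 and 7.23 at 21 days. Gatm, an enzyme of creatine synthesis, was at 5.04, 5.27 and 7.30, and Enpp5, a member of a phosphodiesterase family, at 3.11, 3.74 and 5.28. All 3 were highest in 21-day-old replicate 3, as Elmo1 was. They were picked for likeness to Elmo1 on these same arrays, so this is no separate observation.

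**Figure D4:**
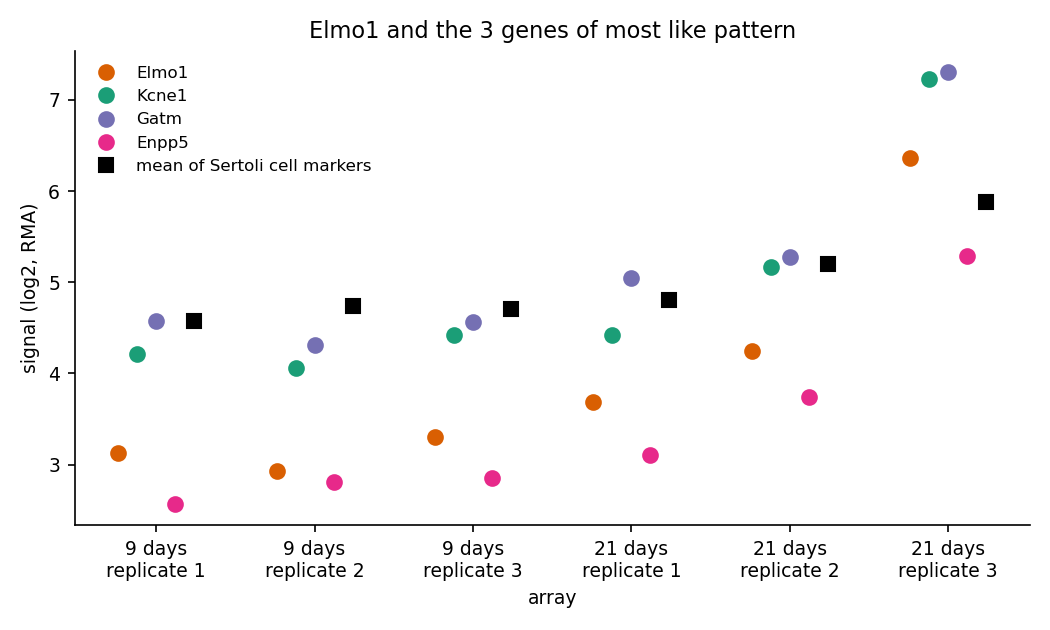
Log2 signal (RMA) on each array for Elmo1, for Kcne1, Gatm and Enpp5, and for the mean of the 17 Sertoli cell markers (black squares). Kcne1, Gatm and Enpp5 were picked for likeness to Elmo1 on these arrays. The 4 genes and the marker mean are highest in replicate 3 of the 21-day-old cultures, where Elmo1 reaches 6.36.

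The window before the start of Elmo1 is shown as that of the gene with the largest age difference. It is chr17:49518160-49518409 (- strand) in build GRCr8, the RefSeq start, with the GC box again in capitals.
Elmo1: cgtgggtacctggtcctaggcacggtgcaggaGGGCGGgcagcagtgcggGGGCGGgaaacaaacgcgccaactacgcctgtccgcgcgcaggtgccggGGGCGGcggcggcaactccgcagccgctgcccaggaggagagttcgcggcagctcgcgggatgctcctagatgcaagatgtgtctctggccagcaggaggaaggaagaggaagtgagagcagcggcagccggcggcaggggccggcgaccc
It held 3 GC boxes and 1 E-box (CANNTG, searched on both strands), a motif that 65.5% of all windows hold. The letters AACAAT of SOX factors and NGATAA of GATA factors, found in 10.3% and 23.4% of all windows, were not in it. A gene can start at other sites than the one listed, and the array does not show which start was used.

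The relatives and partners of Elmo1, named here after their values were seen, had smaller differences. Its paralogues Elmo2 and Elmo3 differed by -0.083 ± 0.14 and -0.060 ± 0.07 (log2, SE). Dock2, a partner found in blood cells, was at 2.50 at both ages, above only 14.1% of genes. At such a signal an equal value does not show equal expression. Dock1 was not among the genes tested. Rac1, the GTPase at the end of this route, differed by -0.014 ± 0.10 and exceeded 99.2% of genes. None of the 4 passed limma's test, with an adjusted p of 1 each, and for each of them the ages overlapped.

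Gulp1, the other adaptor, was at 6.18, 5.75 and 6.17 at 9 days and at 6.34, 5.72 and 6.16 at 21 days. Replicate 2 was the lowest of both ages and the values overlapped. The difference was 0.043 ± 0.20 (SE), with an interval of -0.45 to 0.53 and an adjusted p of 1 in limma. Arrays of the same number differed by 0.16, -0.027 and -0.0071, within a range of 0.62 over the 6 arrays.

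Neither scavenger receptor passed the test between the ages. Scarb1, the receptor for high-density lipoprotein that also binds phosphatidylserine in Sertoli cells, was at 6.24, 6.27 and 6.37 at 9 days and at 6.29, 6.07 and 6.16 at 21 days. Replicates 2 and 3 at 21 days lay below all younger values and replicate 1 did not. The difference was -0.12 ± 0.08 (SE), with an interval of -0.32 to 0.089 and an adjusted p of 1 in limma. Scarb1 also brings cholesterol to Leydig cells. Leydig cell markers had means between 4.13 and 4.33 on all arrays, with Star, the carrier of cholesterol into mitochondria, between 10.84 and 11.28 and Cyp11a1, the first enzyme of steroid synthesis, between 2.48 and 2.87.

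Cd36, a scavenger receptor of macrophages, fat cells and capillaries, lay above only 0.965% of genes. Its brighter probe set was at 2.07, 2.01 and 1.98 at 9 days and at 1.98, 1.98 and 2.05 at 21 days. The value of 1.98 was the same in every deposited digit on 3 arrays, as some value was on at least 3 arrays for 17.1% of genes. The second probe set of Cd36 was at a mean of 1.95 and differed by -0.018, beside -0.016 for the first. At such signals an equal value at both ages does not show equal expression. Markers of endothelial cells, another source of Cd36, had means between 3.52 and 3.88, with Pecam1 between 2.88 and 3.66 and Cdh5 between 4.66 and 5.27.

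The other genes of engulfment were read in 5 lists, which held 117 genes, 101 of them measured. None passed limma's test over all genes. In mean at 21 days 48 were higher and 53 lower, where 46.5% of all genes were higher. The median difference was -0.00093, beside -0.0093 over all genes. At an unadjusted p under 0.05, 3 were higher and 4 lower, where limma gave 1.45% and 1.52% of all genes. The ages did not overlap for 2 higher and 2 lower genes, against 2.74% and 2.98% of all genes.

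Lipid sensing and export genes handle the load of an engulfed cell. They had 15 of 21 members higher, beside 46.5% of all genes, and a median difference of 0.088. Ucp2, a mitochondrial carrier that sustains continued uptake in phagocytes, was at 9.03, 8.83 and 8.89 at 9 days and at 9.65, 9.44 and 9.82 at 21 days. Its ages were parted by more than their spread, with a difference of 0.72 ± 0.12 (SE) or 1.64-fold, an unadjusted p of 0.000905 and an adjusted p of 1 in limma. Arrays of the same number differed by 0.61, 0.61 and 0.93. Abcg1, which exports cholesterol, differed by 0.80 ± 0.31 with overlap, and by 1.58 in the arrays numbered 3 against 0.31 and 0.52 in the other pairs.

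Receptors and opsonins for phosphatidylserine had 10 of 21 members higher and a median difference of -0.040. Olr1, a scavenger receptor for oxidized lipoprotein, was at 7.51, 6.28 and 7.84 at 9 days and at 5.88, 5.18 and 7.19 at 21 days. It was lower in each pair of the same number although the ages overlapped, and the difference was -1.13 ± 0.63 (SE; adjusted p of 1 in limma). In limma with the replicate block the unadjusted p of Olr1 was 0.00234 and the adjusted p 0.390. Scarf1, a scavenger receptor for complement-coated dead cells, was the only member without overlap, at -0.27 ± 0.10.

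Signals of dying cells and shedding enzymes had 9 of 15 members higher and a median of 0.019. Cd24, a surface glycoprotein read as a signal against uptake, was at 6.89, 6.63 and 5.97 at 9 days and at 5.57, 5.82 and 4.50 at 21 days. All older values lay below all younger ones, with a difference of -1.20 ± 0.41 (SE) and an adjusted p of 1 in limma. In limma with the replicate block the unadjusted p of Cd24 was 0.000478 and the adjusted p 0.347. Sirpa, the receptor of phagocytes for the signal Cd47, also had no overlap, at 0.30 ± 0.10.

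Engulfment signalling and actin genes had 5 of 19 members higher and a median of -0.047, with -0.24 ± 0.15 (SE) for the adaptor gene Crkl and 0.23 ± 0.15 for the phospholipase gene Plcg2. Phagosome maturation genes had 9 of 25 higher and a median of -0.019, with 0.46 ± 0.29 for the small GTPase gene Rab20 and -0.23 ± 0.09 for Atg12, which helps to attach LC3 to membranes. The ages overlapped for every measured gene of both lists.

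**Figure D5:**
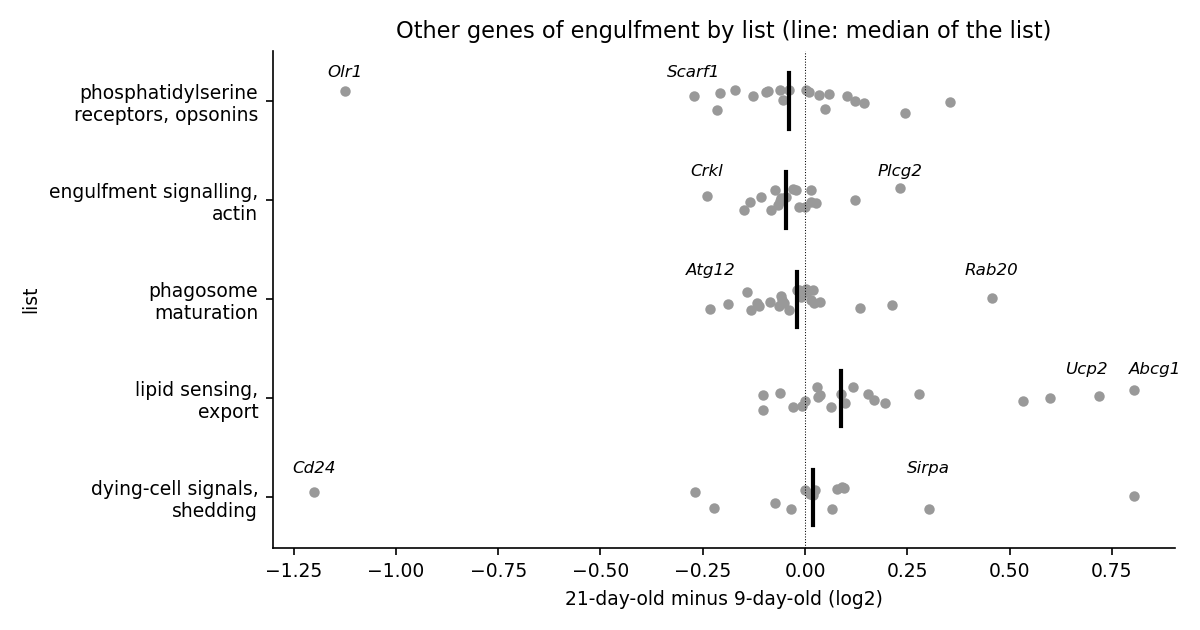
Difference between 21-day-old and 9-day-old cultures (log2) of the 101 other engulfment genes, 1 point per gene in rows by list, with a black line at the median of each list (vertical position within a row has no meaning) and the named genes labelled. The medians lie between -0.047 and 0.088, and Cd24 and Olr1 lie farthest to the left.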

How the data were processed

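Total RNA from 6 samples was measured on Affymetrix arrays. The authors made the deposited log2 values with RMA, as the submitters' processing notes record, and its version is not given in the sources used here. RMA corrects background, normalizes arrays by quantiles and summarises probe sets, so it sets no zero. Neither detection calls nor scan dates were used here.

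Of 29214 probe sets, 15310 had 1 gene symbol in the platform annotation and 323 had several. The probe set of highest mean per gene left 14506 genes. Ages were compared with limma 3.58.1 in R 4.3.3 (lmFit and eBayes, no filter, threshold 0.05), a script tested on simulated data. Figures used matplotlib 3.10.9 in Python 3.11.15. Promoters came from RefSeq, build GRCr8.

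Deviations from the age means correlated at 0.439, 0.549 and 0.673 between arrays numbered 1, 2 and 3, above a limit of 0.1. The numbers, which come from the titles, were therefore taken to pair the arrays in the replicate block and in the differences by number. The main fit, with its SEs and intervals, leaves this pairing out.

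Members and lists were chosen with earlier results of these data known. Named pathway genes were, since none passed, the 2 of each list with the largest difference, those without overlap first. Of 86 cell type markers 78 were measured. Likeness was the mean absolute difference of centred values, for members spanning at least 1 log2 unit. Alternatives were the replicate block, the 7253 brightest genes, 2 other scalings, averaging the probe sets of a gene, a robust trended prior, array weights, leaving out each array and, added after the data were seen, leaving out both arrays numbered 3.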

Additional observations from a re-analysis of the deposited data

How the results depend on the processing

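No alternative gave an adjusted p under 0.05 for any of the 10 genes, and none of the alternatives turned the direction of Mertk, Gas6, Elmo1 or Scarb1. Among the 7253 brightest genes 6 of the 10 were left, without Mertk, Tyro3, Elmo1 and Cd36. The replicate block changed no adjusted call. It moved the genes with an unadjusted p under 0.05 from 431 to 1122 and the members among them from 0 to 1, Elmo1. That count was also 1, Elmo1, after median scaling (3.14% of all genes) and after quantile normalization (2.90%). The same held with a robust trended prior (2.94%) and without both arrays numbered 3 (3.48%). Without single arrays the count ran from 0 to 2, beside 2.10% to 4.33% of all genes. The member was Mertk without 9-day-old replicate 1 and Elmo1 without 21-day-old replicate 3. Gas6 and Elmo1 were the members without 21-day-old replicate 1. With the brightest genes only, 189 genes had such a p, and 304 to 628 without single arrays.

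Members without overlap numbered 0 among the brightest genes (5.58% of which had none), 2 after either scaling (Mertk and Elmo1), 3 without both arrays numbered 3 (Mertk, Elmo1 and Cd36) and 1 to 3 without single arrays. The larger counts came with a larger share of all genes, from 5.72% with 6 arrays to between 12.2% and 16.4% without single arrays and 24.5% without both arrays numbered 3. Quantile normalization turned Pros1 to 0.024 and Mfge8 to 0.021, and leaving out both arrays numbered 3 turned Tyro3 to -0.081. Without single arrays the differences ran from -0.24 to 0.10 for Axl, -0.073 to 0.24 for Tyro3, -0.21 to 0.17 for Pros1, -0.19 to 0.18 for Mfge8, -0.098 to 0.22 for Gulp1 and -0.038 to 0.0091 for Cd36, so that the sign of each turned. The signs of Axl, Pros1 and Mfge8 turned without 9-day-old replicate 3, at 0.10, 0.17 and 0.18. They turned as well without 21-day-old replicate 2, at 0.060, 0.086 and 0.097. Those of Pros1 and Mfge8 also turned without 21-day-old replicate 1, at 0.080 and 0.072. The cause was not tested.

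The median of the 10 genes ran from -0.092 to 0.11 without single arrays, and the changes of the log2 ratios from -0.24 to 0.026 for Mertk to Axl and from -0.030 to 0.41 for Gas6 to Pros1. The median of phosphatidylserine receptors and opsonins was -0.091 among the brightest genes, -0.065 and -0.056 after median scaling and quantile normalization, 0.0030 without both arrays numbered 3, and -0.095 to 0.018 without single arrays. That of phagosome maturation was -0.044 after median scaling, -0.040 without both arrays numbered 3 and -0.067 to 0.0088 without single arrays. Without single arrays the median ran from 0.030 to 0.18 for lipid sensing, -0.038 to 0.056 for dying-cell signals and -0.096 to 0.0047 for engulfment signalling.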
